A study of Mus musculus with 6 samples.

Results

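The 10 genes described here, Fos, Fosb, Jun, Junb, Egr1, Klf2, Klf4, Atf3, Ier2 and Dusp1, are immediate early genes, which cells switch on within minutes of a stimulus. They were read from sorted GFP-positive cells of the mouse ganglionic eminences (GEs) at E13.5, as 10 of the 29606 loci in the deposited expression table. They were chosen by values of these same libraries, because several are high in replicate 1 of both genotypes, so that pattern is given as a description and has no test. There were 3 wild-type (WT) libraries, with the genotype CCP1 Wt/Wt with the transgene Dlx5,6 CRE GFP, and 3 CCP1 conditional knockout (cKO) libraries, with the genotype CCP1 lox/lox and the same transgene, all of strain MF1. Both groups therefore carry the transgene that puts Cre and GFP under Dlx5/6 control, which is active in the GABAergic lineage of the ventral forebrain. In CCP1 cKO cells, Cre removes floxed exons of Agtpbp1, the gene of the deglutamylase CCP1. All cells of the 6 libraries had been dissociated with papain and sorted by FACS, and no library came from tissue that had not been dissociated. For the time from dissection to lysis and the day of each preparation, no value was given in the sources used here.

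Immediate early genes need no newly made protein for their transcription. Kinases such as p38 and PKA act on factors already bound near their starts, among them SRF with its partner ELK1, and CREB, which binds the cyclic AMP response element (CRE). The transcripts are short lived, so a pulse of transcription comes and goes quickly. Most of the products are transcription factors. FOS and JUN proteins pair to form AP-1, EGR1 and the KLF proteins are zinc finger factors, and DUSP1 is a phosphatase that switches MAP kinases off again. In brain tissue these genes are known as markers of recent neuronal activity and also as genes that enzymatic dissociation can induce.

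The stretches just before the starts of 6 members are shown because CRE letters recur in them and because these members range from the highest levels measured here to almost none. Each line gives the 150 bases before the RefSeq start on the strand of the gene, 5′ to 3′ (RefSeq, GRCm38.p6, the assembly that mm10 names). Capitals mark the CRE core TGACG on either strand, the looser form TGACNTCA and the TATA box TATAAA. The stretches lie at chr12:85473740-85473889 (Fos, plus strand), chr7:19310046-19310195 (Fosb, minus), chr8:84978749-84978898 (Junb, minus), chr4:95052223-95052372 (Jun, minus), chr17:26508473-26508622 (Dusp1, minus) and chr1:191183334-191183483 (Atf3, minus).
Fos: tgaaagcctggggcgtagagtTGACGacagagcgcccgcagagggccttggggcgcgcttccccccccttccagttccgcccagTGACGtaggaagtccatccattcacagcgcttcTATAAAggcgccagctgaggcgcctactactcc
Fosb: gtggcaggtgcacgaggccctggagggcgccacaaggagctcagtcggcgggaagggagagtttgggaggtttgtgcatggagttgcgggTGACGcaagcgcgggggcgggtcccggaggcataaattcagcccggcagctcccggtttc
Junb: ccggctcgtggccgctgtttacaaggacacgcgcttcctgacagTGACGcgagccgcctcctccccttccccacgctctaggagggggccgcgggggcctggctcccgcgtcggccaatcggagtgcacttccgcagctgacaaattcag
Jun: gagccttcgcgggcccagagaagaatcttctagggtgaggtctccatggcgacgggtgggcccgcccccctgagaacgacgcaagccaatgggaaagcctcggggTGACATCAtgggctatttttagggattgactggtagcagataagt
Dusp1: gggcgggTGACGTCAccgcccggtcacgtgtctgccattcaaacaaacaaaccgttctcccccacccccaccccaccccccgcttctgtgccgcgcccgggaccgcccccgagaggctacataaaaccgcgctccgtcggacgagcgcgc
Atf3: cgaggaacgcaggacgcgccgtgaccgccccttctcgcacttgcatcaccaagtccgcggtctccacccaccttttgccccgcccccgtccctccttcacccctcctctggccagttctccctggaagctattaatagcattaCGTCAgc

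Of the 10 members, 8 matched the promoter table, Egr1 and Ier2 being the other two. Within the 250 bases before the start, the CRE core stood in 7 of the 8 members, on either strand, against 17.9% of 27025 promoters and 28.7% of the 7773 promoters of genes tested here. In Klf2 and Klf4 it lies further out than the stretches shown, at -241 to -237 and, on the reverse strand, at -232 to -228. Dusp1 was the 1 member with the full palindrome TGACGTCA, at -143 to -136, a form held by 1.62% of all promoters. The looser TGACNTCA, which includes that palindrome, stood in Dusp1 and Jun and in 7.59% of all promoters. TATAAA was found in Fos alone of the 8, at -33 to -28, and in 13% of all promoters. The GC box GGGCGG stood in 7 of the 8 members, against 32.9% of all promoters and 62.6% of those of tested genes, and CCAAT stood in Jun and Junb, against 34.5% of all promoters. The AP-1 site TGANTCA (6.87% of all promoters) and the CArG box (1.4%) were in none of the 8 windows. These matches are letters in a short window and say nothing of which factor was bound.

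The values are FPKM, fragments per unit of transcript length and of library depth, as deposited for each library. They summed to 447510 to 542953 in a library, of which 10 loci made up 13.2% to 28.3%. These values do not show the absolute depth, and ratios at loci with few fragments gave relative depths of 0.727 to 1.14. Agtpbp1, the targeted gene, ranged over 9.56 to 10.1 FPKM in CCP1 cKO and over 18.1 to 20.0 FPKM in WT, as the labels say. The X-linked Xist had 70.9 to 137 FPKM, and the Y-linked Ddx3y had 0.269 FPKM in CCP1 cKO replicate 1 and 2.24 to 5.89 FPKM in the other libraries, so most libraries held RNA of both sexes and n counts libraries. The replicate 1 libraries were not alike in Ddx3y, with 0.269 and 4.81 FPKM. In a technical trait, CCP1 cKO replicate 1, WT replicate 1 and WT replicate 2 stood together. At loci below 0.05 FPKM, the log2 ratio between libraries had an interquartile range of 0.0238 to 0.0345 within these 3 and of 0.0253 to 0.0467 within the other 3, against 0.0687 to 0.134 across. The ribosomal repeat Rn45s was listed at 0 in the same 3. WT replicate 2, 1 of these 3, had low values of the immediate early genes, as shown next, and the part of this split in their pattern was not tested. Lars2, a mitochondrial tRNA synthetase, was listed at 0 in both replicate 1 libraries and had 1891 to 7714 FPKM in the other 4, and its part in the pattern was not tested.

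Fos, the founding member of the AP-1 family (chr12:85470967-85477687), stood at 56.4 FPKM in CCP1 cKO replicate 1, at 4.95 FPKM in replicate 2 and at 6.92 FPKM in replicate 3, and in WT at 49.2, 2.68 and 1.78 FPKM in the same order, which is kept below. Both replicate 1 libraries stood far above the other 4, and the genotypes overlapped. The mean of the replicate 1 libraries was 12.9-fold that of the other 4, with 9.50-fold within CCP1 cKO and 22.0-fold within WT. Fosb, its close relative (chr7:19301256-19310102), read 13.8, 1.17 and 1.20 FPKM across the CCP1 cKO libraries and 12.7, 0.343 and 0.392 FPKM across WT. Its ratio of 17.1 was the highest of the 9 members tested, although its level was below that of Fos in every library.

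Jun, the partner that FOS proteins need to bind DNA as AP-1 (chr4:95048118-95052329), measured 52.6, 18.7 and 22.5 FPKM in the cKO group, while WT had 56.5, 18.9 and 19.3 FPKM. In the replicate 1 libraries Jun and Fos were thus at similar levels, while in the other 4 libraries Jun stayed at 18.7 FPKM or more and Fos at 6.92 FPKM or less. The ratio of Jun was 2.75. Junb, a JUN protein that can restrain JUN (chr8:84975704-84978748), stood at 4.14, 1.49 and 2.88 FPKM in the 3 CCP1 cKO libraries and at 5.14, 1.18 and 1.27 FPKM in the WT ones, a ratio of 2.72. It is listed at 2 loci of the same span, and the values are those of the locus on the annotated minus strand. The plus-strand locus had 0.440 to 0.873 FPKM. Atf3, a stress-induced factor of the ATF/CREB family that can dimerize with JUN (chr1:191170297-191183333), was close to absent, at 0.0714, 0 and 0.0235 FPKM in CCP1 cKO, with 0.0654, 0.0529 and 0.0634 FPKM in WT. Scaled by relative depth, these values came to 3, 0, 1, 2, 2 and 3 times the smallest value above 0, all within 0.0365 of a whole number, so a few fragments at most separate the libraries if the smallest value is 1 fragment. Atf3 was below the mean of 1 FPKM set for testing and was given no fold and no test.

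Egr1, a zinc finger factor that follows SRF and ELK signalling (chr18:34861207-34864956), read 6.91, 1.01 and 1.88 FPKM across the CCP1 cKO libraries and 5.27, 1.23 and 0.799 FPKM across WT. Its replicate 1 ratio was 4.96 and was almost the same within both genotypes, at 4.79 in CCP1 cKO and 5.20 in WT. Klf2, known as a flow-responsive factor of endothelial cells (chr8:72318895-72321664), measured 6.19, 0.978 and 0.899 FPKM in the cKO group, while WT had 5.63, 0.441 and 0.278 FPKM. Its ratio was 9.10, and both WT libraries outside replicate 1 lay below both such CCP1 cKO libraries. Klf4, one of the reprogramming factors (chr4:55527137-55532475), stood at 8.29, 0.463 and 0.860 FPKM in the 3 CCP1 cKO libraries and at 6.47, 0.343 and 0.191 FPKM in the WT ones. Its ratio of 15.9 was second to that of Fosb.

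Ier2, a small nuclear protein of the early response (chr8:84660166-84663199), read 8.50, 4.87 and 6.57 FPKM across the CCP1 cKO libraries and 9.02, 3.30 and 3.26 FPKM across WT, a ratio of 1.95. CCP1 cKO replicate 3 came closest of the other 4 libraries to replicate 1. Dusp1, the MAP kinase phosphatase (chr17:26503357-26510057), measured 47.9, 27.6 and 30.5 FPKM in the cKO group, while WT had 49.3, 22.9 and 28.5 FPKM. Its ratio of 1.78 was the lowest of the 9, and outside replicate 1 its mean of 27.4 FPKM was above that of Jun, at 19.9 FPKM, and of all other members.

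**Figure D1:**
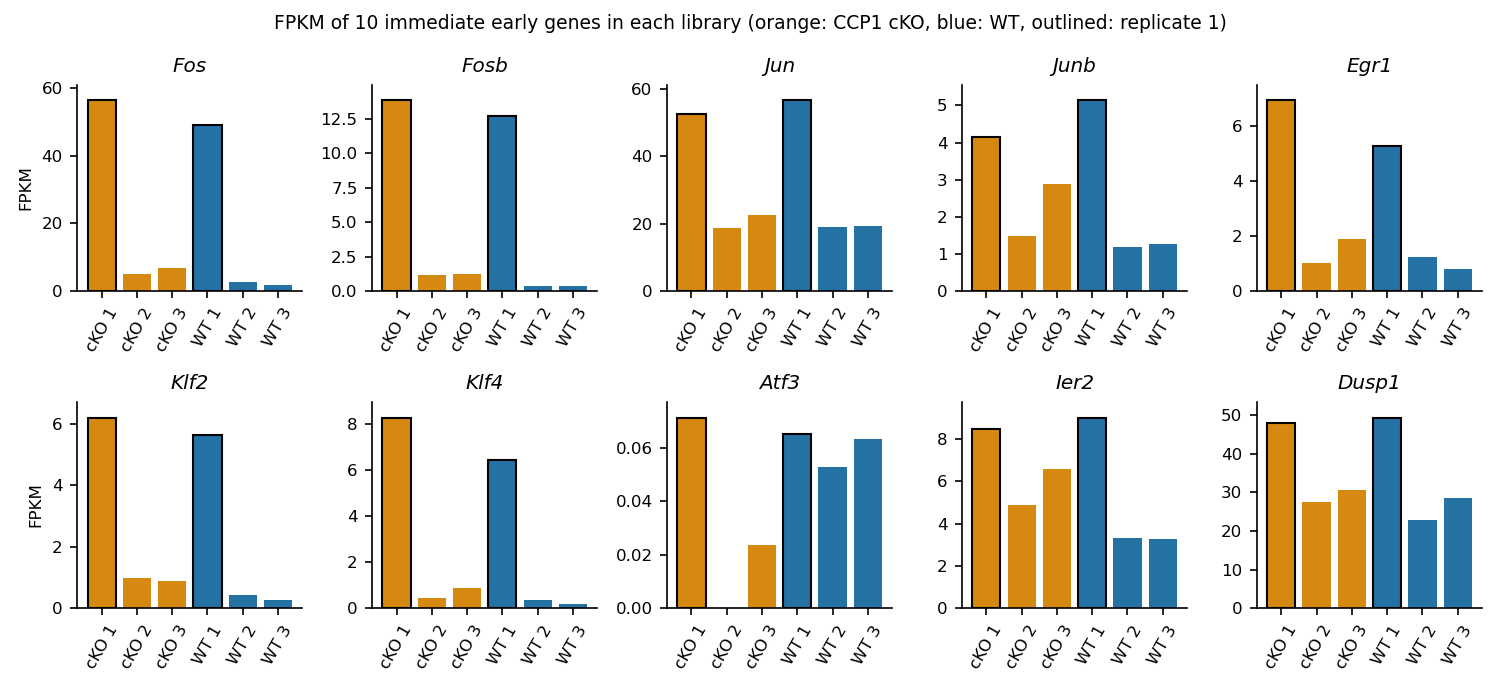
FPKM of the 10 immediate early genes (one panel each, vertical axis in FPKM with its own range) in the 3 CCP1 cKO and 3 WT libraries. One bar is one library, so there is no error bar. The outlined replicate 1 bars are the highest in the panel of each tested member. Atf3 stays at or below 0.0714 FPKM throughout, too low for the order of its bars to be read.

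The members thus differed in the size of a shared pattern. In all 9 members that passed the filter, both replicate 1 libraries lay above the other 4, and the same order was seen in 15.5% of the 13200 loci tested, those whose mean reached 1 FPKM. For 7 of the 9 the difference was also at least 1 on the scale of log2(FPKM + 1), as in 0.523% of all tested loci. Both counts follow from how the genes were chosen, so nothing is read from them. The difference ran from 0.81 for Dusp1 and 0.87 for Ier2 to 3.04 for Fosb and 3.52 for Fos, with a median of 1.68 against 0.02 over all tested loci. The added 1 shrinks the values of low genes, and Fosb, Klf2 and Klf4, which fall below 1 FPKM in some libraries, have larger ratios in FPKM than this scale shows. Among 11610 named tested loci above 0 in every library, 16 had the same order and a difference of at least 1. They were 7 of the members and Dusp6, Zic5, Cnga3, Zic2, Kank3, Hdac1, Mto1, Zic4 and Fgf15.

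**Figure D2:**
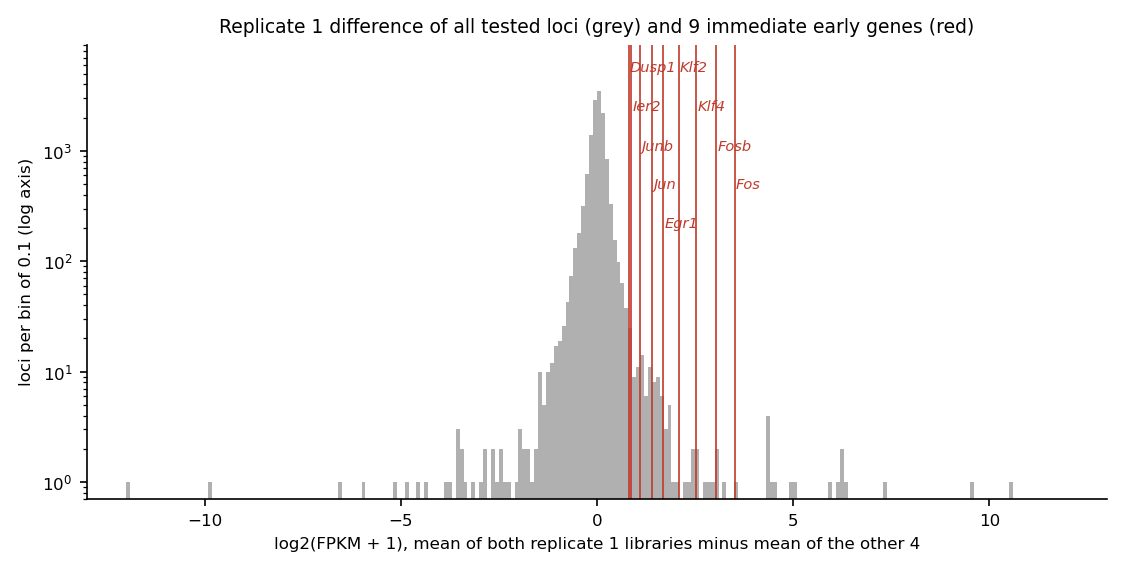
Number of tested loci (log axis) by the difference on the log2(FPKM + 1) scale between the mean of both replicate 1 libraries and the mean of the other 4, in bins of 0.1, with the 9 tested members as red lines. Most loci lie near the median of 0.02, and the members lie between 0.81 and 3.52.

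The order of the members outside replicate 1 is given as a description. CCP1 cKO replicate 3 was the highest of the other 4 libraries in 8 of the 9 members, the exception being Klf2, against 17.7% of all tested loci. A WT library was the lowest in 8 of the 9, the exception being Jun, against 51.5% of the loci. Fosb, Klf2 and Klf4 averaged 0.776, 0.649 and 0.464 FPKM in these 4 libraries and passed the filter only through replicate 1. Nothing is therefore read from either count. The replicate 1 libraries were close to each other, and CCP1 cKO was the higher in 5 of the 9 members. The replicate 1 ratio was larger within WT than within CCP1 cKO in 9 of the 9 members, against 41.5% of the tested loci above 0 in every library. The gap was wide for Fosb (34.5 in WT and 11.7 in CCP1 cKO) and Klf4 (24.2 and 12.5) and small for Dusp1 (1.92 and 1.65). These ratios rest on values that chose the members and were not tested.

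CCP1 cKO was set against WT with limma, on log2(FPKM + 1) and over all 13200 loci, with p-values adjusted by Benjamini-Hochberg and a threshold of 0.05. The direction of this contrast did not choose the members, since each genotype has 1 library of each number. Choosing genes high in replicate 1 does widen their spread within each genotype, which raises their p-values in this fit. The counts of members are therefore not read as the absence of a difference. The fit called 12 loci (0.0909%) and 0 of the 9 members. At an unadjusted p under 0.05, limma gave 0 of the 9 members, against 4.62% of all tested loci. The members' adjusted p-values in limma ran from 0.976 to 0.998. All 9 estimates were above 0, that is higher in CCP1 cKO, and each was smaller than its SE except that of Ier2, at 0.40 ± 0.35 (SE), where the interval still ran from -0.44 to 1.24. Leaving out 1 library changed the sign of some estimates. It also gives replicate 1 unequal weight in the genotypes, which alone can turn the sign of genes high there. Nothing is therefore read from these changes. Without CCP1 cKO replicate 1 only 1 of the 9 estimates (Ier2) stayed above 0 and Fos was at -0.22, without WT replicate 2 or 3 it was 4 of the 9, and without WT replicate 1 all 9 were above 0, with Fos at 2.12. Leaving out CCP1 cKO replicate 3 lowered the 12 called loci to 4.

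Fos averaged 22.8 ± 16.8 FPKM in the cKO group and 17.9 ± 15.6 FPKM in WT (mean ± SEM, n = 3 libraries). Its log2 difference of 0.80 ± 1.28 (SE) had a 95% interval from -2.25 to 3.85, as this fit counts the spread between replicate 1 and the other libraries as error. With a term for replicate 1, added to the same limma fit, the difference of Fos was 0.80 ± 0.23 (SE) with an interval from 0.24 to 1.36, and its adjusted p was 0.660. In that fit 0 of the 9 members were called. Jun, at 31.2 ± 10.7 and 31.6 ± 12.5 FPKM, had the smallest estimate, 0.03, with an interval from -1.20 to 1.26. The narrowest interval was that of Dusp1, from -0.63 to 0.84, around means of 35.3 ± 6.34 and 33.6 ± 8.04 FPKM. In none of the 9 were the 3 libraries of one genotype all above the 3 of the other. This was fixed in advance, since a replicate 1 library of each genotype stood above the other 4, so nothing is read from it. Of all tested loci, 3.98% were higher and 5.81% lower in CCP1 cKO in this way.

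With both replicate 1 libraries left out, the intervals were shorter and the estimates stayed above 0. Fosb, Klf2 and Klf4 averaged 0.776, 0.649 and 0.464 FPKM in the remaining 4 libraries and had passed the filter of 1 FPKM only through replicate 1. The filter was therefore also set on the mean of these 4 libraries, an alternative chosen after seeing the data, which kept 13220 loci and 6 members. Of the 6, both CCP1 cKO libraries were above both WT libraries in 3 (Fos, Junb and Ier2), against 13.9% of these loci. Fos was 2.66-fold as high in CCP1 cKO as in WT in these 4 libraries, while Jun was 1.08-fold and Dusp1 1.13-fold. In limma, 2 of the 6 had an unadjusted p under 0.05, against 5.57% of loci. These were Fos, with a log2 difference of 1.10 ± 0.21 (SE), and Ier2 with 0.64 ± 0.15. None of the 6 passed the adjusted threshold, which 16 loci (0.121%) did, and the smallest adjusted p of a member in limma was 0.485, for Fos. The values of Fosb, Klf2 and Klf4 in these libraries, all at 1.20 FPKM or less, are given above as levels only. Each genotype then rests on 2 libraries.

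Compared by replicate number, the members were higher in CCP1 cKO in 5, 7 and 9 of 9 at numbers 1, 2 and 3, against 51.1%, 46.5% and 41.6% of all tested loci. Fos, Fosb, Klf2 and Klf4 were higher in CCP1 cKO at each number, 4 of the 9 members against 11.5% of the loci. At numbers 2 and 3 the last 3 of them were near or below 1 FPKM, and they passed the filter only through replicate 1. Nothing is therefore read from these counts, nor from the medians at numbers 2 and 3. The median log2 difference of the members was 0.12 at number 1, 0.26 at number 2 and 0.66 at number 3, beside 0.0038, -0.017 and -0.035 over all tested loci. Within number 3, the difference was largest for Fos, at 1.51, and smallest for Dusp1, at 0.10. The labels do not say that a number marks a shared litter, day or run.

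**Figure D3:**
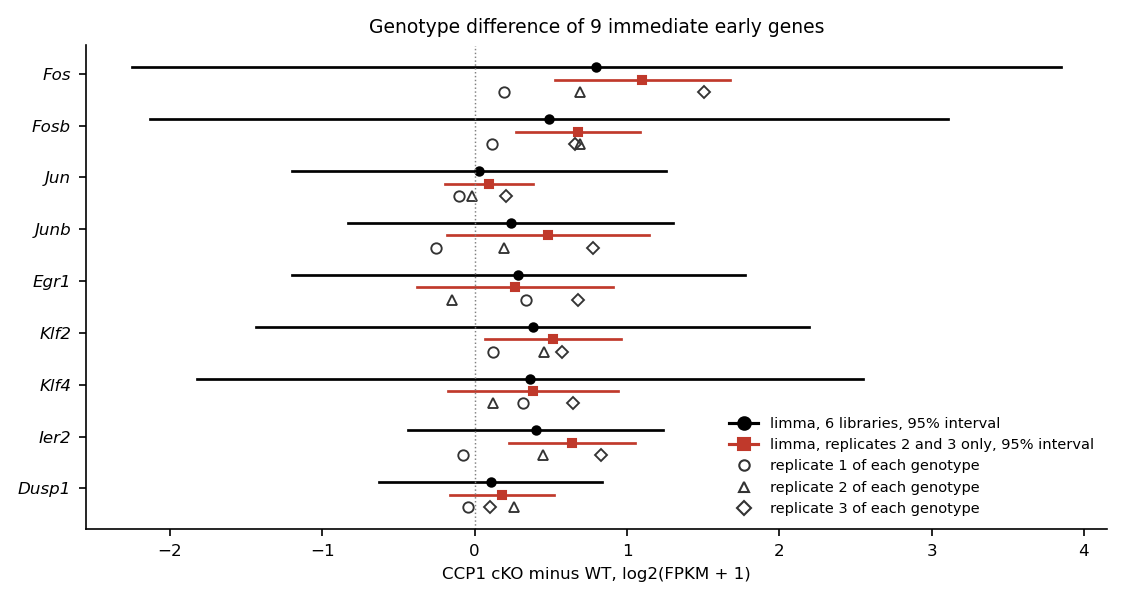
Difference between CCP1 cKO and WT on the log2(FPKM + 1) scale for the 9 tested members. Black points and lines are limma estimates and 95% intervals from all 6 libraries, red ones those without replicate 1, and open symbols the differences between same-numbered libraries. All black intervals cross 0, from the widest in Fos (-2.25 to 3.85) to the narrowest in Dusp1 (-0.63 to 0.84). The red intervals of Fos, Fosb, Klf2 and Ier2 lie above 0, and no member passed the adjusted threshold in that fit. Fosb, Klf2 and Klf4 passed the filter only through replicate 1, so nothing is read from their red intervals.

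The loci whose course over the 6 libraries lay nearest to the median course of the members were found by the root mean square difference of log2(FPKM + 1), each centred on its own mean, with 6 libraries as the points. Dusp6, a MAP kinase phosphatase, was nearest, at 0.090. It stood at 8.65, 1.91 and 3.07 FPKM in the 3 CCP1 cKO libraries and at 8.19, 2.27 and 1.87 FPKM in the WT ones, with both replicate 1 libraries far above the rest as in Egr1. Next among annotated genes came 3 zinc finger factors of the Zic family and the growth factor gene Fgf15. Their distances were 0.194 for Zic2, 0.223 for Zic4, 0.271 for Fgf15 and 0.284 for Zic5. Zic2 read 11.7, 4.01 and 6.26 FPKM across the CCP1 cKO libraries and 15.3, 4.77 and 3.75 FPKM across WT, and Fgf15 9.33, 3.92 and 6.22 against 12.4, 4.15 and 3.93 FPKM. In Dusp6, Zic2, Zic4 and Fgf15 as well, CCP1 cKO replicate 3 was the highest outside replicate 1. In Zic5 it was WT replicate 2, at 0.936 FPKM against 0.602 FPKM in CCP1 cKO replicate 3. As these loci were picked for a course near that of the members, a shared order is no separate result. The remaining 3 loci carry the names Cnga3 (0.146), Hdac1 (0.158) and Mto1 (0.207) but lie on the strand opposite to the annotated gene. On their annotated strand, Hdac1 had a mean of 20.4 FPKM and Mto1 of 8.80 FPKM, with replicate 1 differences of 0.01 and 0.10, so at both names the large difference stood on the opposite strand only.

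**Figure D4:**
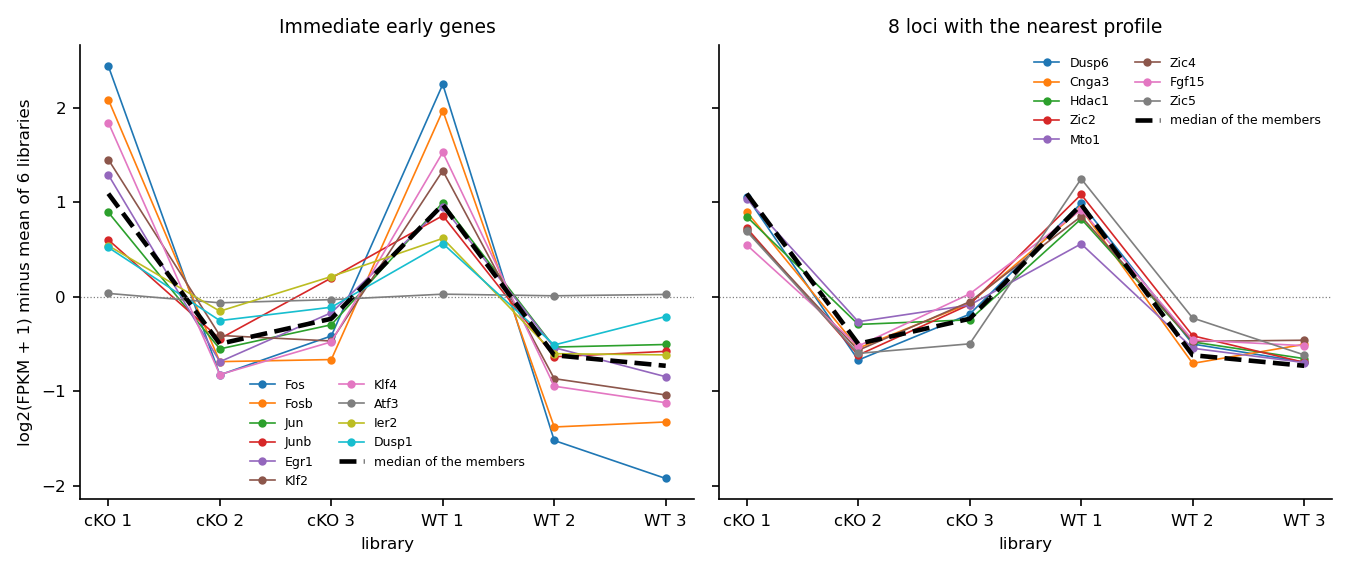
Values of log2(FPKM + 1) minus the mean of the 6 libraries, by library, for the 10 members (left) and the 8 loci with the nearest course (right), with the median of the members as a dashed line. Lines join values of one gene only to guide the eye. The median stands highest in the replicate 1 library of each genotype, and Atf3 stays near 0.

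Other immediate early genes shared the pattern in part. Of 44 listed genes, 43 were found and 33 tested, and both replicate 1 libraries were above the other 4 in 19 and below them in 1, beside the 15.5% and 10.3% of all tested loci. The median difference was 0.26, against 1.68 in the members and 0.02 in all tested loci. Jund, the third JUN gene, measured 98.9, 50.8 and 64.6 FPKM in the cKO group, while WT had 97.5, 51.0 and 51.8 FPKM, and its difference of 0.84 was close to the 0.81 of Dusp1. Cyr61, a secreted matrix protein and target of SRF and YAP signalling, had 6.14, 3.73 and 3.28 against 6.47, 2.67 and 2.77 FPKM, also a difference of 0.84. Arl4d, the listed gene with the highest mean at 73.0 FPKM, had a difference of -0.12. In the genotype test of limma, 0 of the 33 were called, 2 had an unadjusted p under 0.05, and the smallest adjusted p was 0.150, for Nfil3.

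By family, most relatives of the members differed less. Of 6 tested AP-1 partners, 3 had both replicate 1 libraries highest, with a median difference of 0.11. This order, counted for each family here, was seen in 15.5% of all tested loci. Beside Jund these partners include Atf2, at 0.15, and Atf7, which was lower in replicate 1 at -0.31. Of 11 tested KLF and EGR relatives, 3 had this order, with a median of 0.09. Klf6 stood at 14.6, 8.34 and 7.94 FPKM in the 3 CCP1 cKO libraries and at 14.3, 9.09 and 8.11 FPKM in the WT ones, and Klf11 differed by 0.53, whereas the most abundant relatives, Klf12 and Klf7, were at -0.07 and -0.04. Of 7 tested dual specificity phosphatases, which dephosphorylate MAP kinases, 3 had this order. Dusp6 led with 1.54, followed by Dusp10 with 0.52, and the most abundant, Dusp4 and Dusp8, were at 0.35 and 0.0015.

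The factors and kinases upstream of the members differed little. In 24 tested genes the median difference was 0.03, and 5 of them had both replicate 1 libraries highest. Over all tested loci the share with this order was 15.5%, to be set beside each such count here. Map2k2 (MEK2) was at -0.08, and the largest shifts were those of Mkl1, a cofactor of SRF, and Elk4, at -0.22 and -0.21. Among 6 tested genes that follow neuronal activity later, 4 had this order, with a median of 0.40. They include Vgf, a secreted neuropeptide precursor, at 3.79, 1.82 and 2.35 FPKM in CCP1 cKO, with 4.96, 2.47 and 2.22 FPKM in WT. Scg2, another granule protein, differed by 0.57 and Nrn1 by 0.59, and Rgs2, the most abundant, by 0.14. Of 12 tested heat shock and chaperone genes, 3 had this order, with a median of 0.12. Hspa8 differed by 0.13 and Hsp90ab1 by 0.13. Dnaja1 differed by 1.17, but its values of 70.1, 55.9 and 1891 FPKM in CCP1 cKO, and of 1499.7, 62.1 and 64.0 FPKM in WT did not follow replicate 1, and Hsf1 was at -0.20. No gene of any of these lists was called between the genotypes, with smallest adjusted p-values in limma of 0.976 in each list but that of the other immediate early genes.

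**Figure D5:**
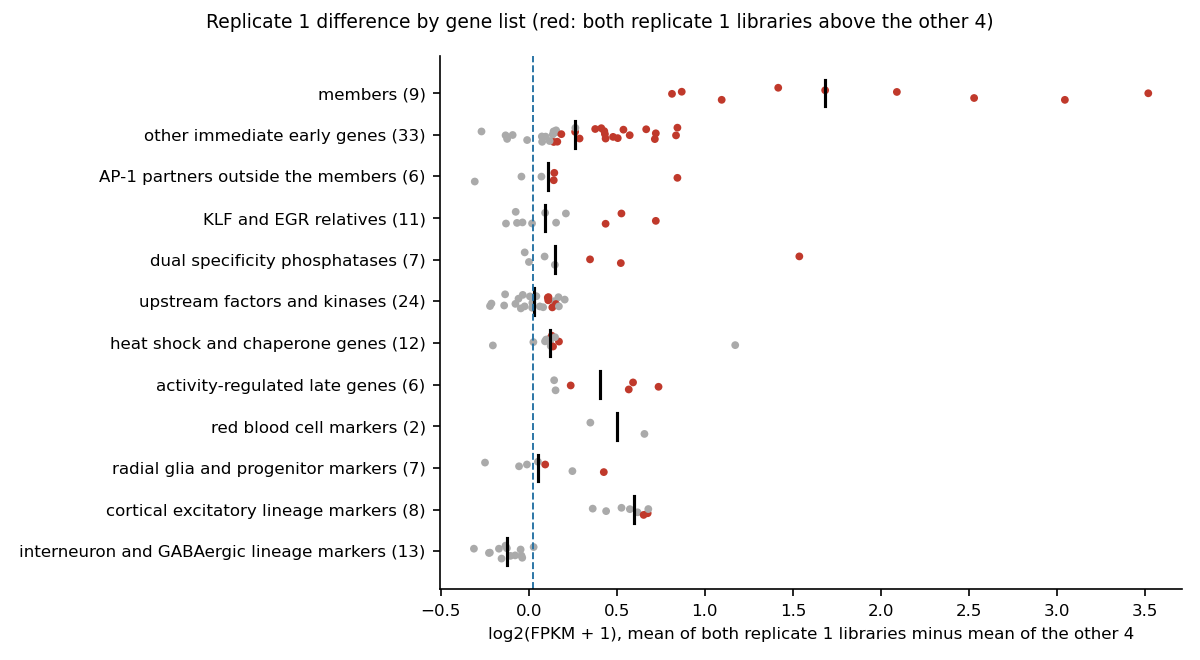
Difference on the log2(FPKM + 1) scale between both replicate 1 libraries and the other 4 for the tested genes of each list (number tested in brackets). A point is a gene, red where both replicate 1 libraries were above the other 4, the black bar is the median of the list and the dashed line the median of all tested loci, 0.02. The members have a median of 1.68 and the other immediate early genes one of 0.26.

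Markers of other cells were compared in the same libraries, since in bulk RNA a change in the share of a cell type and a change in RNA per cell cannot be told apart. None of the 8 endothelial, 6 pericyte, 11 microglial and 6 meningeal markers found reached a mean of 1 FPKM. Endothelial markers summed to 0.782 and 1.70 FPKM in the replicate 1 libraries and to 0.508 to 1.85 FPKM in the other 4. Klf2 stood at 5.63 FPKM or more in replicate 1, and the part of endothelial cells in its level was not tested. Markers of the cortical excitatory lineage, such as Neurod6 and Tbr1, summed to 33.8 and 38.3 FPKM in the replicate 1 libraries and to 10.5 to 44.2 FPKM in the other 4, with the highest sum in WT replicate 2, where the immediate early genes were low. Their median difference was 0.60 in 8 tested genes, with Emx1 and Neurog2 at 0.68 each. The 13 tested interneuron markers, among them Dlx2, summed to 969 and 1018 FPKM in replicate 1 and to 1066 to 1124 FPKM in the other 4, with a median of -0.12, and Gad2 and Nkx2-1 differed by -0.31 and -0.23. Markers of radial glia and progenitors, with Vim and Sox2 the most abundant, had a median of 0.05. Fabp7 and Slc1a3 differed by 0.43 and 0.25, and Mki67 by -0.25. Of red blood cell markers, the embryonic globin gene Hba-x was at 0.66 and Hbb-y at 0.35, and neither had both replicate 1 libraries highest. The part of these cell types in the pattern of the members was not tested.

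The members are short genes. Their median span in the GENCODE annotation was 3286.5 bp with 3.5 exons per gene, against 25018 bp and 9 exons over 9530 tested protein-coding genes, and 9 of the 10 were below the lower quartile of 10529 bp. Short genes had the replicate 1 order somewhat more often, in 20.2% of tested genes in the shortest quartile and in 14.2% to 15.2% of those in the others. The median difference in the shortest quartile was 0.07, and the part of gene length in the pattern was not tested.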

How the data were processed

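The authors extracted RNA from sorted cells, depleted ribosomal RNA, made stranded libraries and sequenced paired ends. They aligned the reads to mm10 with Bowtie2 in the Tuxedo workflow, per the methods and the submitters' processing notes, and deposited FPKM per library for 29606 loci. No program version or annotation was given in the sources used here, which also differ on the sequencer. Columns with the authors' own fold changes and p-values, and a table of isoform means per genotype, were not used. The members and lists were chosen with earlier results of these data known.

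Each member was read from the locus that names it, the longest if several, and Junb, at 2 loci of equal length, from the annotated strand. The order of locus numbers gave the strand, as annotated by GENCODE release M21 at 99.73% of 19057 loci, and 1 was added to each start. Symbols came from the deposited table. Named genes outside the members were, of each list, the 2 most abundant tested genes and the 2 with the largest replicate 1 difference in either direction, since none passed the genotype test, and the 8 loci with the nearest course. Named besides were the loci with the replicate 1 pattern, the gene with the smallest p of the other immediate early genes, Lars2, Rn45s, Agtpbp1, Xist and Ddx3y, chosen after their values were seen. Mki67 was named in the same way. Some genes that the rule names are not reported here.

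The genotype fit took log2(FPKM + 1) of the 13200 loci whose mean reached 1 FPKM into lmFit and trended eBayes of limma 3.58.1 (R 4.3.3), adjusting p by Benjamini-Hochberg. Only the legends give replicates as separate embryos, while most libraries held RNA of both sexes. A library is therefore not taken to be a single embryo, and p-values measure the spread between these libraries. The procedure was tested on simulated data. Alternatives were pseudocounts of 0.1 and 0.5, no filter or 5 FPKM, equal medians, quantile normalization, TPM, the replicate number as a block, a term for replicate 1, no trend, library weights and libraries left out, and, chosen after seeing the data, the filter set on the 4 libraries outside replicate 1. The files give no absolute depth, hence no counting intervals. Python 3.11.15 with pandas 2.3.3, NumPy 2.4.6 and Matplotlib 3.10.9 did the rest.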

Additional observations from a re-analysis of the deposited data

How the results depend on the processing

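No member was called between the genotypes under any of 19 alternatives. The count of members with both replicate 1 libraries highest did not change under 7 of 7. With other pseudocounts or within a single genotype it could not change, as the order of the values stays the same. The pattern also chose the members, so this is no test of it. The count of loci called over the whole table, 12 as reported, was 28 after rescaling to TPM, 19 with a term for replicate 1 and 24 with library weights, and 4 to 16 with 1 library left out, the 4 without CCP1 cKO replicate 3. With a replicate block it was 16. An unadjusted p under 0.05 was found for 3 of the 9 members with the block, against 6.78% of all loci, and for 4 of the 9 with a term for replicate 1, against 5.95%. These were Fos, Fosb and Klf2 with the block, and Klf4 as well with the term. Fosb, Klf2 and Klf4 passed the filter only through replicate 1, so nothing is read from these counts. Deviations of same-numbered libraries correlated at 0.32, 0.11 and 0.0358 for numbers 1, 2 and 3. Libraries of different numbers correlated at -0.257 to 0.169. Only at number 1 was the value above all of those, so the numbers were not taken to pair the libraries throughout.

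The member fold changes, none of them called, turned sign in 25 refits and kept it in 138. All 25 came with library weights or with 1 library left out. With 1 library left out, replicate 1 has unequal weight in the genotypes, so nothing is read from these turns. With library weights the log2 difference was -0.14 for Fosb, -0.32 for Jun, -0.079 for Junb, -0.14 for Egr1, -0.0013 for Klf2, -0.22 for Klf4 and -0.13 for Dusp1. With 1 library left out it ran from -0.22 to 2.12 for Fos, -0.43 to 1.60 for Fosb, -0.41 to 0.53 for Jun, -0.021 to 0.73 for Junb, -0.29 to 0.84 for Egr1, -0.25 to 1.15 for Klf2, -0.47 to 1.22 for Klf4 and -0.13 to 0.41 for Dusp1, lowest without CCP1 cKO replicate 1 (for Junb without WT replicate 2) and highest without WT replicate 1. The cause of the changes in count was not tested. Of the replicate 1 differences recomputed, 53 moved by less and 10 by more than 1 SD of the other 4 libraries, in Fosb, Egr1, Klf2 and Klf4, all with smaller pseudocounts or TPM, and none turned sign. What could be detected depended on the fit, the SE of Fos being 1.28 as reported, 0.24 with the replicate block and 0.23 with a term for replicate 1.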
